A study of Mus musculus with 4 samples.

Results

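The genes of the T cell receptor signalling machinery are those that encode the receptor's signalling chains and coreceptors, the kinases and adaptors next to them, the calcium and NFAT branch, and the proteins that restrain the signal. A list of 43 such genes was used, and a gene entered where a probe set of the array was paired with exactly 1 symbol and that symbol was on the list. This gave 40 of the 43 genes, out of 22180 genes measured that way, with 1 such probe set each. Cd247, Trac and Lck had no probe set of 1 symbol and were not analysed here. All 40 lay at or above the low-value floor (the 40th percentile of each array, 3.74 to 3.77 log2 units) on all 4 arrays, so none entered through only the genotype in which it was higher.

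The cells were naive CD4+ T cells, sorted as CD62L-high, CD44-low and CD25-negative from spleen and lymph node tissue of mice on the C57BL/6 strain. One genotype was TACI-/-, which lacks the receptor encoded by Tnfrsf13b, and the other was wild type (WT); the ages and sexes of the mice, and which part of the gene was deleted, are not given in the sources used here. Each genotype had 2 arrays (Affymetrix Mouse Gene 2.0 ST, 1 colour) that the labels call biological replicates, and the labels call the spleen and lymph node tissue pooled, without saying whether tissue of different mice was joined. The deletion is not described as limited to T cells, and no treatment or culture step is given for either group.

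When the T cell receptor binds its ligand, the coreceptor CD4 brings the kinase LCK to the CD3 and zeta chains, whose phosphorylated tyrosine motifs recruit ZAP70. ZAP70 phosphorylates the scaffolds LAT and SLP-76, which gather phospholipase C gamma, exchange factors for small GTPases and the Tec kinases, and the signal then divides into calcium and NFAT, Ras and MAP kinase, and protein kinase C with NF-kB. Naive T cells hold most of these proteins ready before they meet antigen, together with phosphatases and adaptors that keep the resting signal low.

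The arrays carried the transcripts of a T cell, with Cd3e between 11.24 and 11.58 and Cd4 between 10.45 and 10.64 log2 units. Cd8a and the B cell marker Ms4a1 were below the floor on all 4 arrays, whereas Cd8b1 was at 5.73 to 6.59 and the B cell gene Cd79a at 4.63 to 5.09. Tnfrsf13b itself was below the floor on all 4 arrays (2.73 to 3.09), so it does not check the genotype labels. Array values have no depth, and 2 arrays per genotype limit the precision. Probe sets differ in how brightly they bind, so the level of one gene was not set against that of another. In sorted bulk cells, fewer cells of a type and less RNA per cell cannot be told apart.

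The question of the comparison was whether loss of TACI went with a different amount of this machinery, and the 40 genes differed little. At a limma adjusted p of 0.05 (adjusted by Benjamini-Hochberg over 13782 tested genes) none passed, where 0.138% of all tested genes did. At an unadjusted limma p under 0.05 there was 1 member of 40 (2.5%), Trat1, against 8.78% of all tested genes. The median log2 difference, TACI-/- minus WT, was 0.01 over the members and 0.01 over all tested genes. Of the members, 22 (55%) lay above 0 and 18 below, and 51.8% of all tested genes lay above 0. The median size of a difference, whatever its sign, was 0.10 log2 units in the members and 0.13 in all tested genes.

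These sizes were near the spread between arrays of one genotype. The 2 TACI-/- arrays differed by a median of 0.13 log2 units over the members, and the 2 WT arrays by 0.10 (0.16 and 0.15 over all tested genes). For 12 members (30.0%) the values of TACI-/- and WT arrays were separate, with no overlap, as for 38.7% of all tested genes. Of these 12, 5 were higher in TACI-/- cells (background 20.5% of tested genes) and 7 lower (18.1%). The 95% interval of the difference excluded a 1.5-fold change either way (0.58 log2 units) for 36 of 40 members (90.0%), against 66.7% of all tested genes. The other 4 were Cd3d, Trat1, Bcl10 and Orai1. All members but Tec had higher values than the median tested gene, which lay at 5.30 to 5.36 log2 units on the 4 arrays. The part of this level in the smaller spread, differences and intervals of the members was not tested. A 2-fold change was excluded for all 40, and a 1.25-fold change for 3, so differences of that smaller size were not detectable for most.

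**Figure D1:**
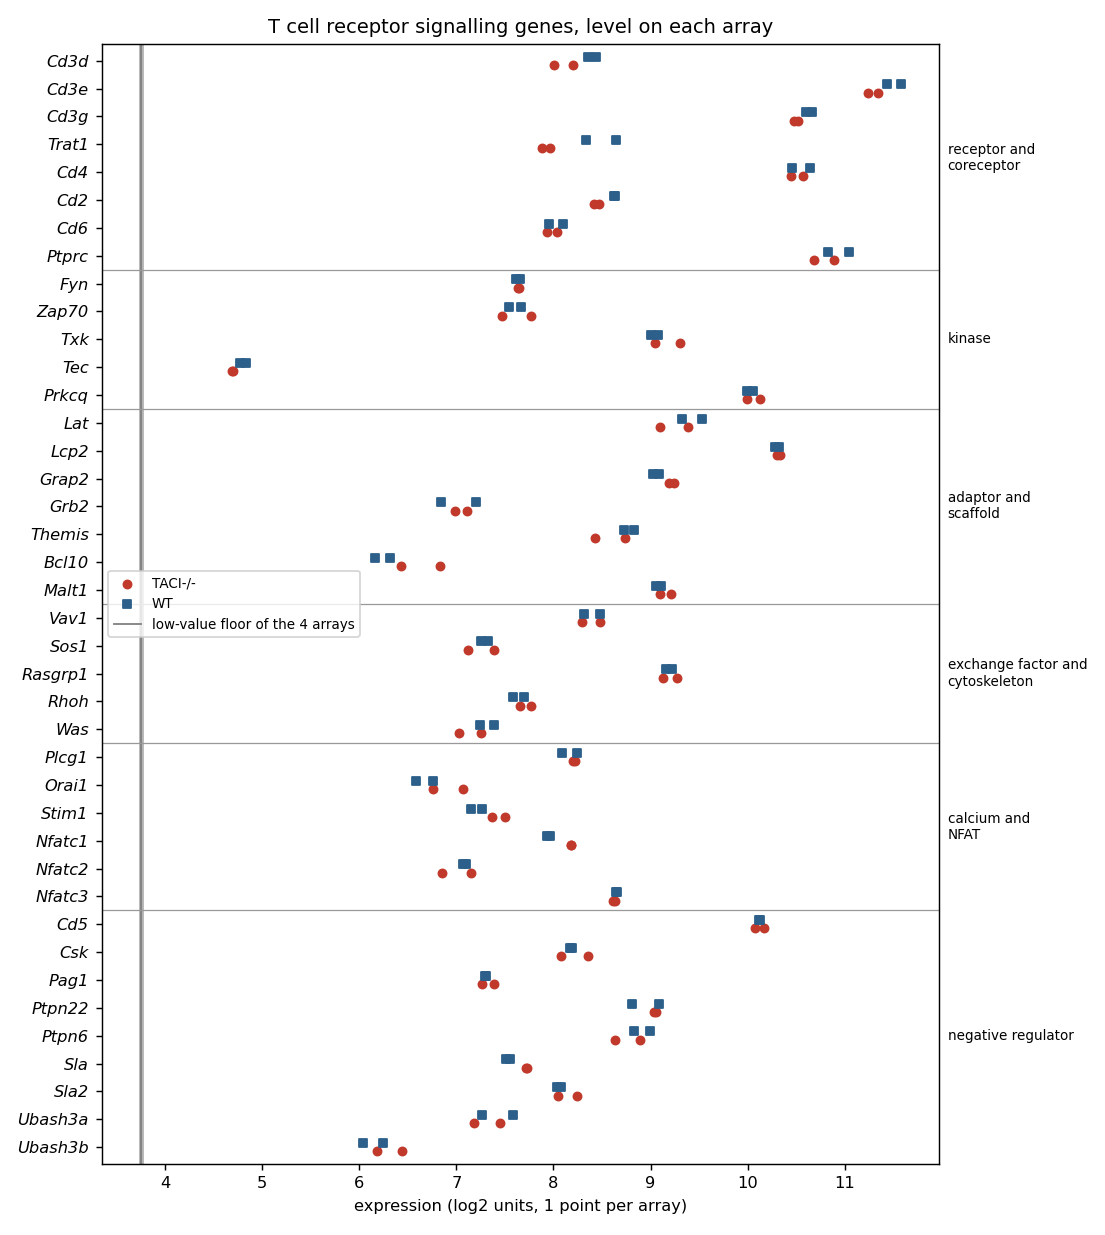
Expression of the 40 measured signalling genes in log2 units, 1 point per array, with TACI-/- arrays as red circles, WT arrays as blue squares and the grey line marking the low-value floor of 3.74 to 3.77. Every point lies above the floor, the lowest being Tec at 4.69, and for most genes the red and blue points mix.

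The receptor and coreceptor genes all had differences below 0, from -0.56 to -0.04, with a median of -0.17 over 8 genes. Of all tested genes, 51.8% lay above 0. None of the 8 passed after adjustment. The CD3 delta chain gene Cd3d was at 8.20 and 8.001 log2 units on the TACI-/- arrays, against 8.36 and 8.44 in WT. Both TACI-/- values lay below both WT values, and the log2 difference was -0.30 ± 0.14 (SE, n = 2 per genotype; limma adjusted p = 0.612). The CD3 epsilon gene Cd3e was at 11.34 and 11.24 in TACI-/- cells against 11.58 and 11.43 in WT cells, and the CD3 gamma gene Cd3g at 10.52 and 10.48 against 10.66 and 10.60. Both again had separate groups, with log2 differences of -0.21 and -0.13 and 95% intervals that include 0 (-0.54 to 0.11, and -0.44 to 0.17). Under a further quantile normalization the difference of Cd3g was -0.05.

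The CD3 chains carry the tyrosine motifs that start the signal, and their 3 genes lie together on mouse chromosome 9. In the RefSeq annotation of GRCm38.p6 the starts of Cd3g and Cd3d lie 1355 bases apart, on opposite strands, and that of Cd3e lies 27825 bases from that of Cd3d. The sign shared by these 3 neighbouring genes was that of all 8 receptor and coreceptor genes, and a part of their position in it was not tested. The 250 bases before each start are printed from RefSeq (GRCm38.p6), 5′ to 3′ on the gene's strand. The window of Trat1, the member with the largest difference, is printed with them. Capitals mark matches to motifs of transcription factor families at work in T cells, searched on both strands: CAGNTG for E-box proteins, CNGGAAG for ETS factors, TGTGGT for RUNX factors, AGATAA for the GATA family, CTTTGA for TCF and LEF, TGGAAA for NFAT and TGANTCA for AP-1, with the NF-kB consensus searched as well. No matches overlapped in the windows shown.
Cd3g, chr9:44980432-44980681, minus strand: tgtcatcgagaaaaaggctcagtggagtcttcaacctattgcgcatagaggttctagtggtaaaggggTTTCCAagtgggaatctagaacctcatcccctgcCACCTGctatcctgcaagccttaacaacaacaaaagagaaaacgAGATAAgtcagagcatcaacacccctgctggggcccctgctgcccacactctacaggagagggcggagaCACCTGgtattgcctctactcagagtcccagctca
Cd3d, chr9:44981536-44981785, plus strand: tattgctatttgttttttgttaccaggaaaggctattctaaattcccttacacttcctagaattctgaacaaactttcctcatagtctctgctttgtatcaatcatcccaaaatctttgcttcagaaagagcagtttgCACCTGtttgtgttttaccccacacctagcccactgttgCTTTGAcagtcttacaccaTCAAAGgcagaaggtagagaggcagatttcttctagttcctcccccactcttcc
Cd3e, chr9:45009612-45009861, minus strand: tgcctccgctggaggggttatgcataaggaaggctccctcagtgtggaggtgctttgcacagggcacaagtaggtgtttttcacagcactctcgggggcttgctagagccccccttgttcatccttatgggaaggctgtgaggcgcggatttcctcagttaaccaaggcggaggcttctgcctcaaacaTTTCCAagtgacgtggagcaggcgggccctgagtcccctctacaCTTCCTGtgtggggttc
Trat1, chr16:48772063-48772312, minus strand: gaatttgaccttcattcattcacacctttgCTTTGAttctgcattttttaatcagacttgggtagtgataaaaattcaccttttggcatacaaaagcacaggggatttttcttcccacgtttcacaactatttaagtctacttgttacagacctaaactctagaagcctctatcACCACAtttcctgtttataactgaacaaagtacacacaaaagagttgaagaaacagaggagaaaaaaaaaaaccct

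The window of Cd3g held a pair of E-box matches, 1 GATA and 1 NFAT match, and that of Cd3d held 1 E-box and a pair of TCF and LEF matches. The Cd3e window held 1 NFAT and 1 ETS match, the latter 17 bases before the start, and the Trat1 window 1 RUNX and 1 TCF and LEF match. No motif was found in all 4 windows. Of the 40 measured members, 33 had a promoter in the table, with 44 windows in all. E-box letters occurred in 52.3% of those windows and in 44.8% of all 32851 windows of that length, TCF and LEF letters in 20.5% and 13.8%, and ETS letters in 25.0% and 26.6%. RUNX occurred in 15.9% and 14.0%, GATA in 11.4% and 9.99%, and NFAT in 15.9% and 18.6%. The AP-1 letters occurred in 0 of the 44 windows and in 6.75% of all windows. A match describes the sequence and does not show binding.

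Trat1 encodes TRIM, a transmembrane adaptor that associates with the T cell receptor complex. It was at 7.89 and 7.96 log2 units on the TACI-/- arrays, against 8.64 and 8.34 in WT. Both TACI-/- arrays were low and close together, while the WT arrays had an SD of 0.22 (n = 2). The log2 difference was -0.56 ± 0.15 (SE), a 1.48-fold lower level, with a 95% interval from -0.93 to -0.20 (limma adjusted p = 0.36). Its unadjusted p was under 0.05, but not without WT replicate 1, the higher of the WT arrays, where the difference was -0.41, nor without moderation of the variance.

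The remaining receptor genes had smaller differences. Cd2, an adhesion receptor that aids contact with the presenting cell, was at 8.42 and 8.47 on the TACI-/- arrays, against 8.64 and 8.63 in WT, a log2 difference of -0.19 with groups that did not overlap (limma adjusted p = 0.745). Ptprc encodes the phosphatase CD45, which removes the inhibitory phosphate from LCK, and had -0.15 with overlapping arrays. Cd4, the coreceptor, and Cd6, a scavenger-type receptor of the T cell surface, both had -0.04. The sign of Cd4 turned under a further quantile normalization (0.03). Without TACI-/- replicate 2, or without WT replicate 1, 6 of the 8 receptor genes were below 0.

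**Figure D2:**
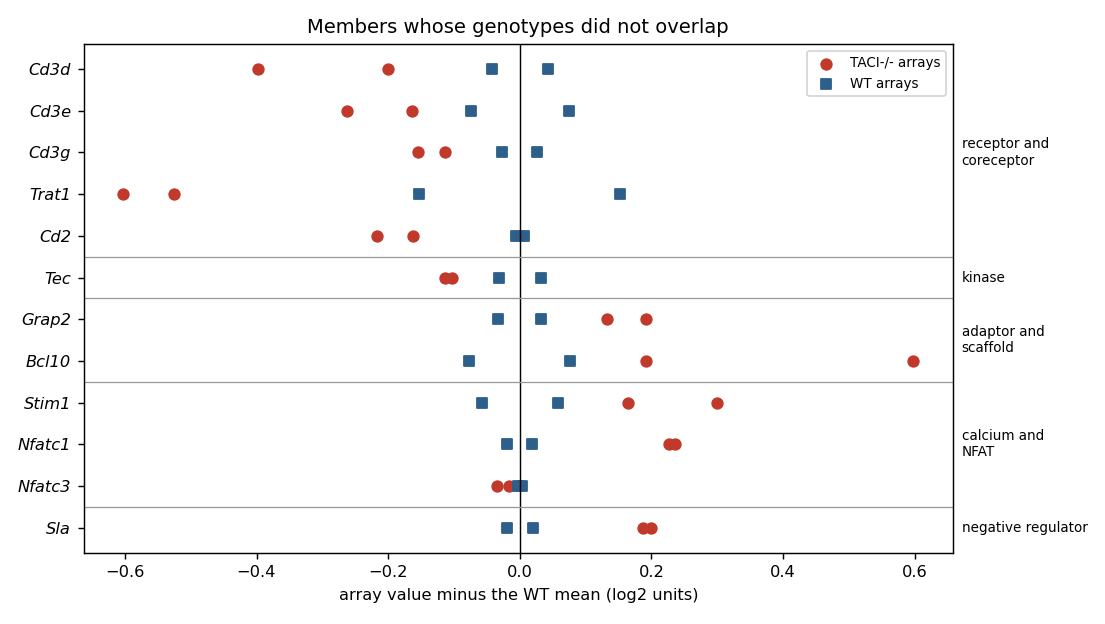
Array values minus the WT mean of each gene, in log2 units, for the 12 members whose TACI-/- arrays (red circles) and WT arrays (blue squares) did not overlap. Trat1 shows the largest downward distance and Bcl10 the largest upward one, with the 2 TACI-/- arrays of Bcl10 far apart; non-overlap was found for 38.7% of all tested genes.

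The kinases had differences from -0.11 to 0.13, with a median of 0.02 over 5 genes. Zap70, the kinase recruited to the CD3 and zeta chains, was at 7.77 and 7.47 on the TACI-/- arrays, against 7.54 and 7.66 in WT, so the TACI-/- arrays lay on both sides of the WT arrays, and its log2 difference was 0.02 ± 0.15 (SE). Fyn, a Src-family kinase beside LCK, was at 7.63 and 7.65 against 7.62 and 7.66, which is a difference of 0.00. Its 95% interval, from -0.30 to 0.31, was among the 3 that excluded a 1.25-fold change. Prkcq, the protein kinase C isoform that links the receptor to NF-kB, had 0.03. Of the Tec-family kinases, which phosphorylate phospholipase C gamma, Txk had 0.13 and Tec had -0.11. The arrays of Tec did not overlap, at 4.69 and 4.70 against 4.77 and 4.84, and no kinase had an unadjusted limma p under 0.05.

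Among the adaptors and scaffolds the largest difference was that of Bcl10, which joins MALT1 in a complex that turns on NF-kB. It was at 6.83 and 6.43 log2 units on the TACI-/- arrays, against 6.16 and 6.31 in WT. The groups did not overlap, but the TACI-/- arrays were farther apart than the lower of them was from the higher WT array. The log2 difference was 0.39 ± 0.17 (SE; 95% interval -0.02 to 0.81; limma adjusted p = 0.585). It was 0.19 without TACI-/- replicate 1 and 0.60 without TACI-/- replicate 2. Its partner Malt1, a scaffold and protease, had 0.08 with overlapping arrays. The 250 bases before the start of Bcl10 are shown in the same way, because it had the highest difference of the members; the capitals mark 1 match to the NF-kB consensus, which was found in 1 of the 44 member windows and 7.25% of all windows.
Bcl10, chr3:145924012-145924261, plus strand: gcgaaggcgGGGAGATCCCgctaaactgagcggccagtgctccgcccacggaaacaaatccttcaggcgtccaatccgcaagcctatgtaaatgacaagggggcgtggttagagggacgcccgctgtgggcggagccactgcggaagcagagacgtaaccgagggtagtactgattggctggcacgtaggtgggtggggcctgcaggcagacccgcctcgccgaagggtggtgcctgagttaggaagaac

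The scaffold genes around LAT had differences close to 0 or small. Lat, the membrane scaffold, was at 9.38 and 9.10 on the TACI-/- arrays, against 9.53 and 9.33 in WT (log2 difference -0.19, with overlapping arrays, and from -0.33 to -0.04 with 1 array left out). Lcp2, which encodes SLP-76, was at 10.34 and 10.30 against 10.32 and 10.28, a difference of 0.02, and its interval too excluded a 1.25-fold change; under a further quantile normalization the difference was 0.11. Grap2 encodes GADS, the bridge between LAT and SLP-76. It was at 9.19 and 9.24 against 9.09 and 9.02 and had 0.16, with groups that did not overlap (limma adjusted p = 0.787). Grb2, which carries SOS to LAT, had 0.03, and Themis, a regulator of the signal that is best known from thymic selection, had -0.20, both with overlapping arrays. With 1 array left out, Themis ranged from -0.35 to -0.05.

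The exchange factors and cytoskeletal genes had differences from -0.18 to 0.07 over 5 genes, and the arrays overlapped for each. Vav1, an exchange factor for small GTPases of the cytoskeleton, had -0.01, the Ras exchange factors Sos1 and Rasgrp1 had -0.03 and 0.01, and the small GTPase gene Rhoh had 0.07. Was, which encodes the actin regulator mutated in Wiskott-Aldrich syndrome, had -0.18. No gene of this step had an unadjusted limma p under 0.05.

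In the calcium and NFAT branch 4 of 6 genes had differences above 0 (51.8% of all tested genes), with a median of 0.14. None of the 6 passed after adjustment. Stim1, the sensor of calcium in the endoplasmic reticulum, was at 7.50 and 7.37 log2 units on the TACI-/- arrays, against 7.15 and 7.26 in WT. Orai1, the calcium channel that STIM1 opens, was at 7.06 and 6.75 against 6.76 and 6.58. Stim1 had separate groups and Orai1 did not, with log2 differences of 0.23 ± 0.14 and 0.24 ± 0.16 (SE; limma adjusted p = 0.698 and 0.748). The difference of Orai1 was 0.08 without TACI-/- replicate 1 and 0.39 without TACI-/- replicate 2.

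The NFAT transcription factors, which enter the nucleus when calcineurin removes their phosphates, differed among themselves in sign. Nfatc1 was at 8.18 and 8.19 on the TACI-/- arrays, against 7.97 and 7.93 in WT. Its arrays agreed closely within each genotype, and its log2 difference was 0.23 ± 0.13 (SE; limma adjusted p = 0.673). The unadjusted p of Nfatc1 was under 0.05 without moderation of the variance, which rests on the spread of these 4 values alone, and with a mean-variance trend, where the adjusted p was 0.618 and 0.557. Nfatc2 had -0.08 and Nfatc3 -0.03. The groups of Nfatc3 did not overlap even at that size (8.61 and 8.63 against 8.65 and 8.65). Plcg1, the phospholipase that releases the calcium signal, had 0.04.

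The negative regulators had differences from -0.14 to 0.19, with a median of 0.04 over 9 genes. Of the 9, 7 lay above 0, where 51.8% of all tested genes did. Cd5, a surface receptor whose amount on T cells tracks the strength of self-recognition, was at 10.17 and 10.08 on the TACI-/- arrays, against 10.12 and 10.13 in WT. The 2 TACI-/- arrays of Cd5 enclosed the WT arrays, and the log2 difference was 0.00 ± 0.13 (SE), with an interval from -0.31 to 0.31 that excluded a 1.25-fold change. Csk, which phosphorylates the inhibitory tyrosine of LCK, and Pag1, which anchors CSK at the membrane, had 0.04 and 0.03. The phosphatases Ptpn22 and Ptpn6 (SHP-1) had 0.10 and -0.14. The arrays of these 4 genes overlapped.

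The related adaptors Sla and Sla2 dampen the receptor by promoting its degradation. Sla was at 7.72 and 7.73 on the TACI-/- arrays, against 7.55 and 7.51 in WT, with groups that did not overlap and a log2 difference of 0.19 ± 0.13 (SE; limma adjusted p = 0.737). Sla2 had 0.09 with overlapping arrays. Ubash3a and Ubash3b encode the STS proteins, which restrain signalling by ZAP70, and had -0.11 and 0.17. Their arrays overlapped as well, and neither pair of related genes was tested for a difference between its members.

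**Figure D3:**
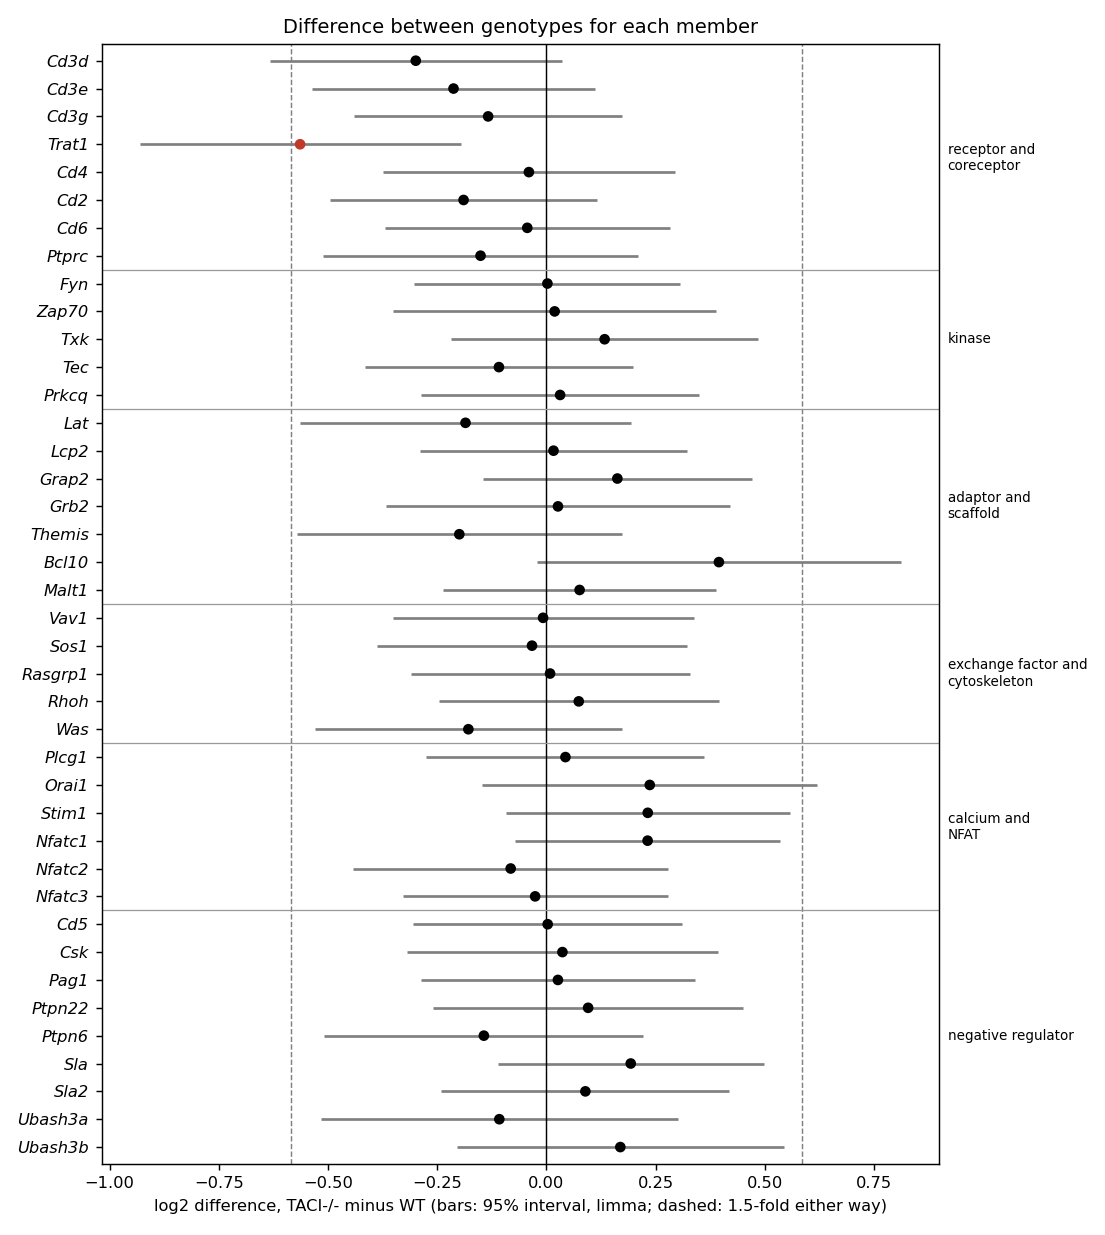
Log2 difference, TACI-/- minus WT, for each of the 40 members, with horizontal bars for the 95% interval (limma) and dashed lines at 1.5-fold either way. Only the bar of Trat1, drawn in red for an unadjusted p under 0.05, leaves out 0, and 4 bars cross a dashed line (Cd3d, Trat1, Bcl10 and Orai1).

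Other genes of the pathway were taken from a list of 89, of which 71 could be tested. None passed after adjustment in either direction (limma), and 3 (4.23%) had an unadjusted p under 0.05, against 8.78% of all tested genes. Of the 3, 2 were higher in TACI-/- cells (background 4.94%) and 1 lower (background 3.84%). The costimulatory receptor gene Cd28, whose signal joins that of the T cell receptor, was at 8.44 and 8.37 log2 units on the TACI-/- arrays, against 7.87 and 7.92 in WT. The log2 difference was 0.51 ± 0.13 (SE; limma adjusted p = 0.327). Sos2, a Ras exchange factor related to Sos1, had 0.40, and Tespa1, an adaptor of calcium signalling in thymocytes, had -0.40 (limma adjusted p = 0.496 and 0.51). Each had separate groups. Without moderation of the variance the unadjusted p of Tespa1 (limma fit) was 0.0513, while those of Cd28 and Sos2 were under 0.05. Tespa1 did not have an unadjusted p under 0.05 without TACI-/- replicate 1 (0.0796), TACI-/- replicate 2 (0.057) or WT replicate 1 (0.131). Sos2 did not without TACI-/- replicate 2 (0.0767) or WT replicate 1 (0.104). Trbc1 and Trbc2 had no probe set of 1 symbol and were not analysed here.

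The median log2 difference of the 71 genes was 0.03, and their 95% intervals excluded a 1.5-fold change for 63 of them (88.7%). The diacylglycerol kinase gene Dgka, which limits the Ras branch, had 0.03, and the ubiquitin ligase gene Cblb 0.07. Of the calcineurin subunits, Ppp3cb had -0.33, with arrays that did not overlap, and Ppp3ca and Ppp3cc had -0.03 and 0.02. These 5 genes were singled out after their values were seen, as examples of the restraining and calcium steps, and none had an unadjusted limma p under 0.05.

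Genes known to be induced by T cell receptor signals gave other values on the same arrays. Of 25 such genes, 24 had a difference above 0, against 51.8% of all tested genes, and the median of the 25 was 0.54. Of the 25, 18 (72.0%) had an unadjusted limma p under 0.05, all higher in TACI-/- cells, where 4.94% of tested genes did so. After adjustment, where 0.138% of all tested genes passed in either direction, 5 had risen: Nr4a2, Nr4a3, Irf4, Ctla4 and Dusp5. Their log2 differences ran from 1.57 to 2.35 (limma adjusted p 0.00514 to 0.0296). This list was chosen with results of these data known and is no independent evidence of its direction. With any 1 of the 4 arrays left out, or with no moderation of the variance, 0 of all 13782 genes passed after adjustment, these 25 included, while their median with 1 array left out lay between 0.49 and 0.75. With no filter on low values Nr4a3 alone of the 25 passed, among 3 of all 22180 genes. Under a further quantile normalization Nr4a2 did not pass, and 12 of all 13782 genes did. With a mean-variance trend 8 of the 25 passed, Cd69, Junb and Tagap added, among 46 of all 13782 genes. Whether the induced genes differ from the signalling genes was not tested.

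**Figure D4:**
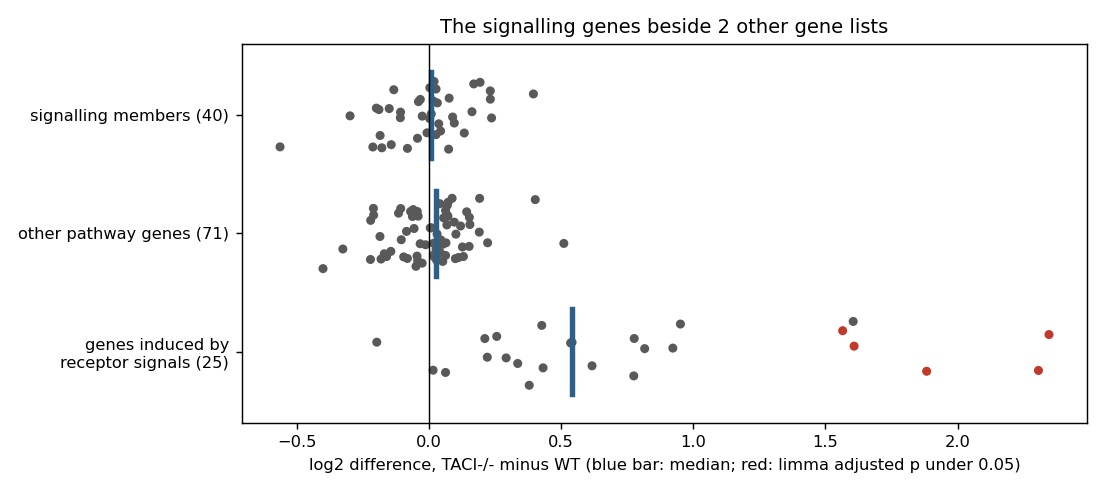
Log2 difference, TACI-/- minus WT, for the 40 signalling members, 71 other pathway genes and 25 genes induced by receptor signals, 1 point per gene, with a blue bar at each median and red points past a limma adjusted p of 0.05. The medians are 0.01, 0.03 and 0.54, and the 5 red points all belong to the induced genes; vertical scatter within a list has no meaning.

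Markers of other cells were read beside these values, as the log2 of the summed linear levels of each list. The regulatory T cell list held 12 genes, of which 10 could be tested. Its sum was 9.33 and 9.32 on the TACI-/- arrays and 8.94 and 8.88 on the WT arrays. These groups did not overlap, and nor did those of the B cell, myeloid, NK cell and naive T cell sums. Of single tested genes, 38.7% had separate groups. Of the 10 tested regulatory T cell genes, 9 had a difference above 0, as did 51.8% of all tested genes, and the median of the 10 was 0.44. At an unadjusted limma p under 0.05 there were 5 (50%), all higher in TACI-/- cells, against 4.94% of tested genes. Ctla4 alone of them passed after adjustment. Ikzf2 had 0.94 (limma adjusted p = 0.0929), but Ikzf2 and Lrrc32 reached the floor on the TACI-/- arrays only. Foxp3 was at 6.19 and 5.98 against 5.63 and 5.38, and Nrp1 and Itgae were below the floor on all arrays. The B cell list (12 genes) summed to 7.85 and 7.65 against 7.41 and 7.58, with Ms4a1, Ebf1, Blk, Blnk and Btk below the floor on all arrays. The myeloid list (12 genes) summed to 7.89 and 7.81 against 7.70 and 7.63, with 6 genes below the floor on all arrays. Its genes went both ways, with log2 differences of 0.71 for Cd68, its brightest gene, and -0.49 for Lyz2, neither past adjustment. The NK cell list (8 genes) summed to 6.79 and 6.86 against 6.93 and 7.01, with 4 genes below it on all arrays. Klrd1 had -0.87 there, while Eomes had 0.79 and Tyrobp 0.25, and none of the 3 passed after adjustment. The CD8 T cell list (6 genes) overlapped at 8.20 and 8.04 against 8.09 and 8.23. Its genes too went both ways, with log2 differences of -0.65 for Cd8b1 and 0.58 for Crtam, neither past adjustment. In the naive T cell list (8 genes), the sum was 12.80 and 12.82 against 12.87 and 12.85, and 1 gene, Il7r (log2 difference -0.48), had an unadjusted limma p under 0.05. Ctla4, Il2ra and Tnfrsf4 stand both in the regulatory and in the induced list. The part of these cells in the differences of the receptor genes, of Bcl10 or of the induced genes was not tested.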

How the data were processed

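The 4 arrays of the series were used, 2 per genotype, with the genotype taken from the sample titles. The deposited table holds 1 log2 value per probe set and array (41345 probe sets); the submitters' processing notes name RMA and Partek but no version, and base 2 is taken from RMA and the range of 0.94 to 13.2. The platform annotation paired 23521 probe sets with 1 symbol, 1814 with several and 16010 with none; the latter groups, 1 probe set of Plcg1 and another symbol among them, were not used. A gene was represented by its brightest probe set and tested where at least 2 arrays reached the array's 40th percentile. Probe sets summarise whole transcripts, so isoforms were not told apart.

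The comparison of TACI-/- with WT used R 4.3.3 and limma 3.58.1 (lmFit, then eBayes, two-sided, prior degrees of freedom 4.59), Benjamini-Hochberg adjusted over 13782 genes at a threshold of 0.05. The fit was also run on data simulated with normal errors and with variances drawn from its own prior. That run could not test departures of real arrays from this model. Promoters were matched by symbol.

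Members and lists were chosen with earlier results of these data known. The text names every member, pathway genes at an unadjusted p under 0.05, induced genes past adjustment and some of the defining markers. Other named genes fall outside these rules and were chosen with their values known. They include Dgka, Cblb, the calcineurin subunits, Klrd1, Eomes, Tyrobp, Cd68, Crtam and Il7r. The labels call the replicates biological and give n = 2 for each genotype, without saying whether an array held 1 mouse or a pool. The SEs, intervals and p-values rest on the spread between these samples, moderated by limma toward that of all tested genes. For Nfatc1 the SE was 0.13 with moderation and 0.02 without it. Replicate numbers are shared only as numbers, so no block was used. At most 0.44% of values were identical between any 2 arrays. Alternatives were averaging the probe sets of a gene, 2 variance models, a second quantile normalization, centring, 2 filters, a replicate block and leaving out each array.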

Additional observations from a re-analysis of the deposited data

How the results depend on the processing

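The count of members past adjustment was 0 under all 12 alternatives; without moderation of the variance and with any 1 array left out, 0 of the 13782 genes passed, so a count of 0 there says nothing about the members. The count at an unadjusted limma p under 0.05 was 1 with no filter on low values, a stricter filter, averaged probe sets, median centring, a second quantile normalization and the replicate number as a block. It was 4 (10% of members, against 8.85% of all tested genes) with a mean-variance trend (Trat1, Cd3d, Bcl10 and Nfatc1) and 3 (7.5% against 7.15%) without moderation of the variance (Nfatc1, Sla and Cd2), so the members' share was below that of all genes in the reported fit but not in these 2 settings. Counts at this threshold with 1 array left out are not given, since such a fit leaves 1 sample in a genotype. The count of other pathway genes at that threshold was 3 in the same 6 settings, where 7.19% to 10.3% of all tested genes reached it. It was 4 of 71 with the trend and 6 of 71 without moderation, where 8.85% and 7.15% of all tested genes did. The members' median log2 difference lay between -0.04 and 0.04 in all settings. Signs of members turned for at most 8 of 40 in any setting, and each member that turned had a reported difference of at most 0.11 in size.

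With the replicate number as a block, 1 member remained at an unadjusted p under 0.05 (Trat1, adjusted p = 0.445). Same-numbered arrays did not deviate together (r = -0.03 across tested genes, which are not independent replicates). A fit without 1 array leaves 1 sample in a genotype, assumed to vary like the other genotype. At 2 arrays per genotype, the interval excluded a 1.25-fold difference for 3 of 40 members.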
